A study of Homo sapiens with 4 samples.

Results

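The genes described here encode the respiratory chain, the ATP synthase and the factors that assemble them. They were taken by gene symbol, as every probe set that the platform annotation gives a single symbol starting with NDUFA, NDUFB, NDUFC, NDUFS, NDUFV, UQCR, ATP5, SDHA, SDHB, SDHC, SDHD, or COX followed by a digit. The rule gave 203 probe sets of 107 genes, out of 54675 probe sets and 19775 genes with a symbol of their own. Of the 107, 75 encode nuclear subunits (33 of complex I, 3 of complex II, 6 of complex III, 16 of complex IV and 17 of ATP synthase) and 3 mitochondrially encoded subunits of complex IV. A further 22 are assembly factors, 1 is the ATP synthase inhibitor ATP5IF1, 2 are pseudogenes and 4 are non-coding RNAs that carry a neighbour's name. All were read in U937, an established human lymphoma line of monocytic character. It was exposed to shikonin, a plant naphthoquinone, at 100 nM for 3 h (2 arrays), or to the solvent DMSO alone (2 arrays, no time stated). The labels name no genetic change in either group. The labels do not say whether the numbered samples came from separate cultures, so p-values here measure the spread between samples, which may be technical.

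Oxidative phosphorylation runs through large protein complexes of the inner mitochondrial membrane. Complex I takes electrons from NADH and complex II from succinate, complex III passes them to cytochrome c, and complex IV hands them to oxygen. Complexes I, III and IV pump protons, and ATP synthase uses the resulting gradient to make ATP. Most subunits are encoded in the nucleus and imported, a few core subunits are encoded in mitochondrial DNA, and dedicated assembly factors insert cofactors and join the parts.

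Most of these genes changed little after shikonin. With limma and Benjamini-Hochberg adjustment over all probe sets, 6 of the 103 members tested rose and 1 fell, at a threshold of 0.05 for the adjusted p. The 6 were the complex I subunits NDUFB7, NDUFV3, NDUFA9, NDUFS6 and NDUFA5 and the complex IV assembly factor COX16, by 1.17-fold to 1.32-fold. The member that fell was SDHAF4, an assembly factor of complex II, which was 1.75-fold lower. The share of members called higher, 5.83%, lay near that of all 13559 genes tested, of which 5.00% were called higher, and the share called lower, 0.971%, lay below the 6.67% of all genes. Bright genes were called more often, and 78 members were among the 3390 brightest genes, of which 10.6% in all and 5 (6.41%) of the members were called higher. Among those 3390, 9.06% of all genes and 0 members were called lower.

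**Figure D1:**
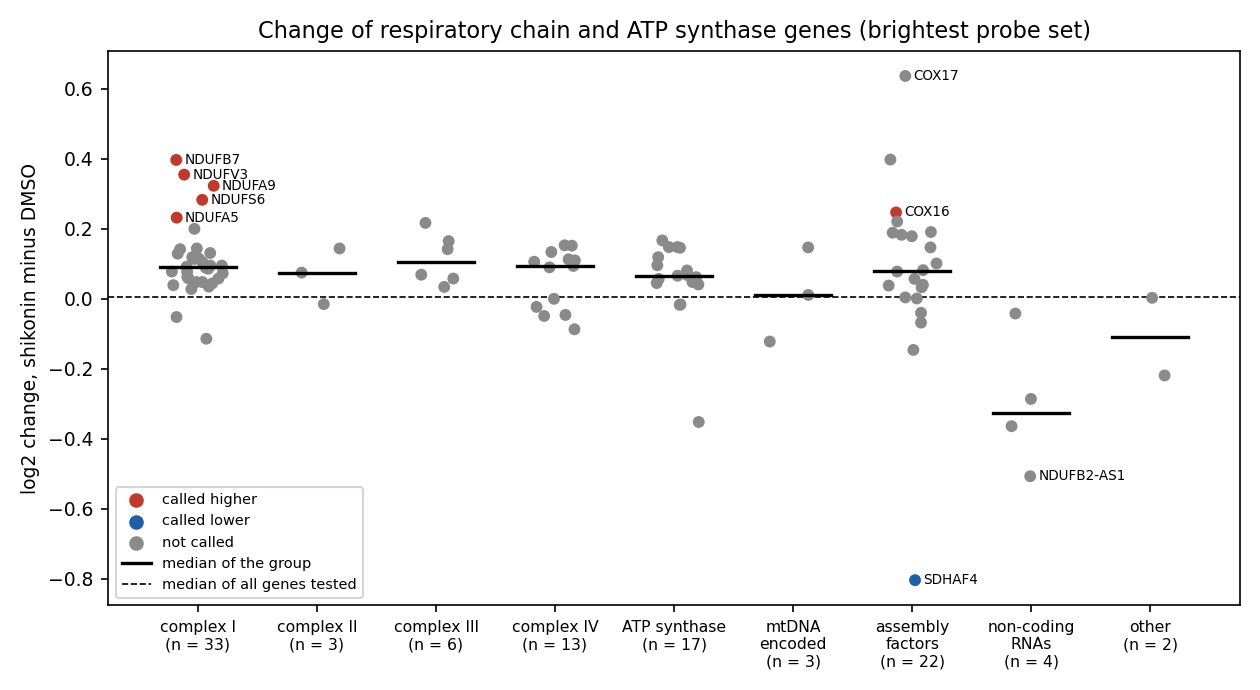
Log2 change (shikonin minus DMSO) of each member's brightest probe set, grouped by complex or role, where points are genes, black lines are group medians and the dashed line is the median of all genes tested (0.004). Group medians of the 5 complexes lie between 0.066 and 0.11, the 4 non-coding RNAs lie below 0, and SDHAF4 (-0.80) stands lowest.

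The 120 bases before the annotated transcription start are shown for some of the genes that carry these calls. The windows shown are those of SDHAF4, the member that fell, and of the only 3 members that rose and have a motif there. They are reference sequences from RefSeq (GRCh38.p14), written 5′ to 3′ on the gene's own strand. Capitals mark matches to GCGCATGCG (the core of sites of the transcription factor NRF1), CCGGAAG (the core of sites of ETS family factors such as GABP), AAGATGGCG (YY1), TGACNNNGC (the antioxidant response element) or CACGTG (the E-box), each searched on both strands. The windows are chr6:70566810-70566929 (plus strand) for SDHAF4, chr12:4648994-4649113 (plus strand) for NDUFA9, chr5:1801287-1801406 (plus strand) for NDUFS6 and chr19:14572067-14572186 (minus strand) for NDUFB7.
SDHAF4: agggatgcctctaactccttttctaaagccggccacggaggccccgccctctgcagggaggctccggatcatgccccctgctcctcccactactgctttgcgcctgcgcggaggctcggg
NDUFA9: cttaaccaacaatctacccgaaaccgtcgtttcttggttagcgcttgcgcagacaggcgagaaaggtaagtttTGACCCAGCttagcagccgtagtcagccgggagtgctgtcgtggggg
NDUFS6: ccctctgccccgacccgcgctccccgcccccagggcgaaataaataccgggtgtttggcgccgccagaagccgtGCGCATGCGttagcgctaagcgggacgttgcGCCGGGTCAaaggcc
NDUFB7: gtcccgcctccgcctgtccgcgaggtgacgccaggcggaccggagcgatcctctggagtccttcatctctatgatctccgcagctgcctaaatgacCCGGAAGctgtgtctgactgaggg
The capitals in NDUFA9 are a match to the antioxidant response element, 47 to 39 bases before the start. Those in NDUFS6 are an NRF1 match (46 to 38 bases before) and an antioxidant response element match on the opposite strand (15 to 7 bases before). Those in NDUFB7 are an ETS match (24 to 18 bases before). SDHAF4 holds none of the 5 motifs in the window shown, and NDUFA9 also holds a YY1 match outside it, just after the start. NDUFV3, NDUFA5 and COX16, the other members that rose, hold none of the 5 from 250 bases before to 50 after the start.

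Over all members, these letters were compared with other promoters, in windows of 250 bases before to 50 after the start. A window was listed for 89 of the 107 members. The NRF1 core was in 13 of the 89 (14.6%), against 3.58% of 10906 promoters of genes tested on the arrays and 2.1% of all 27305 promoters. The YY1 letters were in 9 (10.1%), against 3.63% of tested genes and 1.85% of all, and the ETS letters in 25 (28.1%), against 18% and 10.7%. The antioxidant response element was in 11 (12.4%), against 15.1% and 13.6%, and the E-box in 12 (13.5%), against 10% and 7.43%. No motif contains another, though a window can hold several. A match is a run of letters and not a measured site. Members with the NRF1 letters had a median log2 change of 0.094 (13 tested), and the other members with a window one of 0.078 (74 tested). For the antioxidant response element the medians were 0.048 with the letters (11 tested) and 0.082 without (76 tested). For the other motifs the medians with and without the letters were -0.017 and 0.090 for the E-box, 0.096 and 0.069 for ETS, and 0.048 and 0.087 for YY1. None of these differences was tested.

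All 33 nuclear subunits of complex I, the complex with the most genes here, were tested. Of these, 5 (15.2%) were called higher and 0 lower, beside 5.00% called higher over all genes and 10.6% over the 3390 brightest, which hold 31 of the 33. The median log2 change was 0.092 (range -0.11 to 0.40), with 31 above 0. Quantile normalization gave a median of 0.048 with 25 above 0. Both shikonin arrays lay above both DMSO arrays in 22 of the 33 (66.7%) and below in 0. Over all genes tested, the shikonin arrays lay above in 28.2% and below in 27.3%, and over the 3390 brightest they lay above in 43.9%.

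NDUFB7 is an accessory subunit on the outer face of the membrane arm. Its signals were 1072 and 1240 in DMSO and 1535 and 1508 after shikonin. Both shikonin arrays were above both DMSO arrays, and the gene rose 1.32-fold (log2 change 0.40, SE 0.092, limma adjusted p = 0.0288). NDUFV3, a small accessory subunit of the NADH-oxidising module, read 2316 and 2738 with DMSO, then 3207 and 3242 with shikonin. The shikonin arrays agreed closely and the DMSO arrays did not, and the rise was 1.28-fold (log2 change 0.36, SE 0.084, limma adjusted p = 0.0316).

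NDUFA9, a subunit at the joint between the arms of complex I, read 3181 and 3025 in DMSO and 3962 and 3803 after shikonin. It rose 1.25-fold (log2 change 0.32, SE 0.064, limma adjusted p = 0.0153), the smallest p among the members called higher. NDUFS6, an accessory subunit that binds zinc in the NADH-oxidising module, read 4369 and 4216 in DMSO and 5149 and 5299 after shikonin. It rose 1.22-fold (log2 change 0.28, SE 0.058, limma adjusted p = 0.0181). NDUFA5, an accessory subunit near the ubiquinone-reducing module, read 4021 and 3748 in DMSO and 4558 and 4564 after shikonin. Its call was marginal (log2 change 0.23, SE 0.062, limma adjusted p = 0.0499), and its other, dim probe set lay at -0.36 and did not pass.

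**Figure D2:**
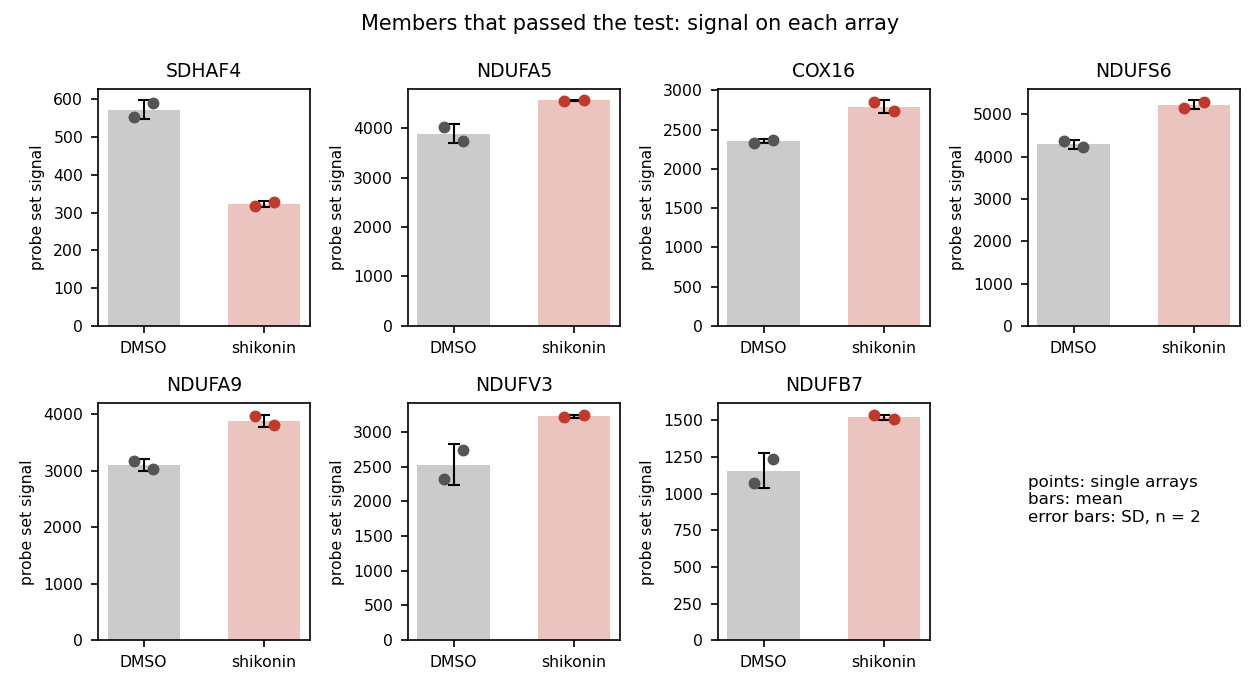
Probe set signal (linear scale from 0) of the 7 members that passed the test, with single arrays as points, group means as bars and SD as error bars (n = 2 each). The arrays of the groups do not overlap in any of the 7, which were chosen by a test on these same arrays. Over all genes tested, the shikonin arrays lay above both DMSO arrays in 28.2% and below in 27.3%. SDHAF4 is the panel with lower shikonin bars.

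Each of the 5 complex I calls was lost without at least 1 of the arrays. Members called higher numbered 2 without DMSO 1, 3 without DMSO 2 (NDUFAF8 newly among them), 1 without shikonin 1 (NDUFAF1, not among the 6) and 1 without shikonin 2, against 6 with all arrays. NDUFA9 lost the call without DMSO 2 (limma adjusted p = 0.0586) or shikonin 1 (0.083), and NDUFS6 without DMSO 2 (0.0676), shikonin 1 (0.0588) or shikonin 2 (0.101). NDUFB7 and NDUFV3 lost it without DMSO 1 (0.124 and 0.128), shikonin 1 (0.0963 and 0.0833) or shikonin 2 (0.0824 and 0.103), and without DMSO 1 the log2 change of NDUFV3 was 0.235. NDUFA5 lost it without any of the 4 (0.0549 without DMSO 1, 0.198 without DMSO 2, 0.158 without shikonin 1 and 0.165 without shikonin 2). The log2 changes of these 5 genes stayed above 0 in all of those fits. With no filter on low values, NDUFA9 and NDUFS6 kept the call and the other members called higher lost it. NDUFB7 and NDUFV3 each have a dimmer probe set, with log2 changes of 0.091 (limma adjusted p = 0.913) and 0.66 (0.0873).

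The remaining 28 subunits of complex I did not pass. The next in size was NDUFA11, a membrane arm subunit, with 6553 and 7026 in DMSO and 7611 and 7985 after shikonin (log2 change 0.20, limma adjusted p = 0.0688). A second bright probe set of NDUFA11 gave 0.20 as well. NDUFAB1, the mitochondrial acyl carrier protein, which also serves lipoic acid synthesis, read 16336 and 17636 in DMSO and 18993 and 18476 after shikonin (log2 change 0.14, limma adjusted p = 0.135). At the low end was NDUFS1, the largest iron-sulfur subunit, with 2772 and 2499 in DMSO and 2583 and 2289 after shikonin. Its groups overlapped (log2 change -0.11, limma adjusted p = 0.46), and 3 of its 4 other tested probe sets were also below 0. By symbol series, the medians were 0.092 for 12 NDUFA subunits, 0.086 for 11 NDUFB subunits, 0.063 for 5 NDUFS subunits and 0.095 for 3 NDUFV subunits.

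Complex II subunits showed no call, while one of the factors that build the complex fell. SDHA, the flavoprotein that oxidises succinate, read 2429 and 2691 in DMSO and 2574 and 2486 after shikonin, a log2 change of -0.015 with overlapping groups (limma adjusted p = 0.931). SDHC, a membrane anchor that holds haem, changed by 0.075 (limma adjusted p = 0.61), and its 6 other probe sets ran from -0.24 to 0.23 with none called. SDHD, the other anchor, read 5676 and 5389 in DMSO and 5798 and 6444 after shikonin (log2 change 0.14, limma adjusted p = 0.227). The signals of SDHC overlapped between groups and those of SDHD did not.

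SDHAF4 binds the flavin-loaded SDHA on its way into the complex. Its signals were 554 and 590 in DMSO and 318 and 329 after shikonin, so that the lowest DMSO array lay far above the highest shikonin array. The gene fell by 0.80 on the log2 scale (SE 0.12, limma adjusted p = 0.00426; 95% interval -1.08 to -0.53). It stayed called without DMSO 1, DMSO 2, shikonin 1 or shikonin 2, with log2 changes from -0.85 to -0.75 over the 15 alternatives tried. The call was lost in the fit without a variance trend (limma adjusted p = 0.147), in which no gene was called. It has 1 tested probe set.

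The other complex II factors did not pass. SDHAF1, which helps to insert the iron-sulfur clusters, read 805 and 741 in DMSO and 732 and 664 after shikonin (log2 change -0.15, limma adjusted p = 0.443). Its dimmer probe set lay at -0.34 (limma adjusted p = 0.0731). SDHAF2, needed for attaching flavin to SDHA, changed by 0.19 (limma adjusted p = 0.209), and SDHAF3 by 0.040 (0.857). The 2 factors that act on SDHA, SDHAF2 and SDHAF4, thus had log2 changes of opposite sign, and only that of SDHAF4 passed.

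Complex III held 6 tested subunits and no call. UQCRQ, a small subunit beside cytochrome b, had the highest change: 3515 and 3842 in DMSO, 4271 and 4275 after shikonin (log2 change 0.22, limma adjusted p = 0.0736). The lowest was UQCRC2, a core protein, with 12836 and 13214 in DMSO and 13176 and 13495 after shikonin (0.034, limma adjusted p = 0.729). Its partner UQCRC1 read 9641 and 9959 in DMSO and 10517 and 11474 after shikonin (0.17, limma adjusted p = 0.116). All 6 log2 changes were above 0, with a median of 0.11, and in 3 (50%) the shikonin arrays were above both DMSO arrays. Over the 3390 brightest genes, which hold all 6, 62.4% were above 0 and 43.9% had the shikonin arrays above. Over all genes tested the shares were 50.6% and 28.2%. The direction of the 6 depended on scaling: 3 of the 6 were above 0 with quantile normalization (median 0.027) and 4 with cyclic loess (0.063).

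In complex IV, no subunit passed. The median over 13 tested nuclear subunits was 0.094 (range -0.087 to 0.15), with 8 above 0. The median was 0.016 without DMSO 1 and 0.009 with quantile normalization. COX5B, a zinc-binding subunit, was highest among subunits, with 11281 and 11472 in DMSO and 12160 and 13167 after shikonin (log2 change 0.15, limma adjusted p = 0.122). COX4I1, the ubiquitous isoform of subunit 4, read 13536 and 14468 in DMSO and 14568 and 15238 after shikonin (0.090, limma adjusted p = 0.351). COX4I2, its isoform known from lung and low oxygen, was dim, with 174 and 204 in DMSO and 217 and 191 after shikonin (0.11, limma adjusted p = 0.787). The tissue-restricted isoforms COX6B2, COX7A1 and COX7B2 had mean signals of 18.0, 9.73 and 23.9, below the filter on low values, and were not tested, and COX8C and COX6A2 were tested and did not pass. COX7C, a small subunit, changed by -0.046 at its brightest probe set (limma adjusted p = 0.613), which was called lower with quantile normalization (-0.15, 0.0398). In the main fit its other probe sets changed by 0.13 (0.243) and 0.056 (0.698).

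Mitochondrially encoded subunits gave no call. COX1, which holds the oxygen-reducing centre, read 36590 and 38143 in DMSO and 39951 and 42843 after shikonin (log2 change 0.15, limma adjusted p = 0.1). COX2, which accepts electrons from cytochrome c, changed by 0.011 (limma adjusted p = 0.933), and COX3 by -0.12 (0.392). Outside the symbol rule, ATP6 (0.075), ND4 (0.050), ND2 (0.049) and ND6 (0.11) had overlapping groups, and none of the 4 passed. No called change was therefore seen for any of the 7 mitochondrially encoded transcripts tested, which does not show that they were equal.

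Complex IV factors gave 1 call among 10, beside 5.00% called higher over all genes. At the brightest probe sets all 10 log2 changes were above 0, with a median of 0.12, though that of COX10 was 0.001. Over all genes tested 50.6% were above 0, and 62.4% of the 3390 brightest, which hold 4 of the 10. Some dimmer probe sets of these factors lay below 0, among them a COX15 probe set (-0.27, limma adjusted p = 0.0719). COX16, needed to build the copper-carrying COX2 module, read 2335 and 2371 in DMSO and 2851 and 2737 after shikonin (1.19-fold, log2 change 0.25, SE 0.066, limma adjusted p = 0.0499). It lost the call without any single array (0.146 without DMSO 1, 0.111 without DMSO 2, 0.208 without shikonin 1 and 0.114 without shikonin 2). COX17, the copper chaperone, had the highest log2 change of all members, 0.64, but its only single-gene probe set was dim (32.8 and 64.9 in DMSO, 75.2 and 80.9 after shikonin) and it did not pass (SE 0.41, limma adjusted p = 0.387). COX7A2L, which joins complexes III and IV into supercomplexes, read 5505 and 5649 in DMSO and 6276 and 4981 after shikonin, so that the shikonin arrays spanned the DMSO arrays (0.004, limma adjusted p = 0.988). Of the 8 complex I factors none passed. Among them, NDUFAF8 read 895 and 1294 in DMSO and 1473 and 1372 after shikonin (0.40, limma adjusted p = 0.136), and NDUFAF6 changed by 0.22 (0.0656).

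None of the 17 ATP synthase subunits passed, and their median log2 change was 0.066. The catalytic core is made of ATP5F1A and ATP5F1B. ATP5F1B, the catalytic beta subunit, had the highest change, with 14832 and 16168 in DMSO and 16937 and 17850 after shikonin (log2 change 0.17, limma adjusted p = 0.105). ATP5F1A, the alpha subunit, changed by 0.062 (limma adjusted p = 0.46).

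ATP5MC1, ATP5MC2 and ATP5MC3 encode the same mature ring subunit with different import sequences. ATP5MC1 read 2478 and 2490 in DMSO and 2778 and 2729 after shikonin (log2 change 0.15, limma adjusted p = 0.196), and ATP5MC2 changed by 0.15 too (0.123). ATP5MC3 changed by 0.041 (0.681), and its dimmest tested probe set by 0.35 (0.0607). ATP5IF1, which inhibits the enzyme when it runs in reverse, read 3384 and 3558 in DMSO and 3450 and 3503 after shikonin. Those values overlapped (0.003, limma adjusted p = 0.987). The lowest subunit, ATP5MF, was read by a dim probe set (54.5 and 79.2 in DMSO, 41.8 and 58.4 after shikonin; log2 change -0.35, limma adjusted p = 0.653), so little can be said of it.

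The precision of these values can be stated. For 67 of the 72 nuclear subunits tested, the 95% interval of the log2 change (limma) lay wholly between -0.5 and 0.5, and the median half-width was 0.13. The 5 exceptions were ATP5MF, COX4I2, COX6A2, NDUFB7 and NDUFV3. Among all 103 members, 90 met this limit. Of 50 genes with several tested probe sets, all pointed 1 way in 34 and were mixed in 16, and 61 of the 81 other probe sets had the sign of the brightest. None of these 81 was called.

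The complexes were then set side by side. Median log2 changes were 0.092 for complex I, 0.075 for complex II, 0.11 for complex III, 0.094 for complex IV and 0.066 for ATP synthase, beside 0.051 for the 3390 brightest genes and 0.004 for all genes. The differences between these medians were of the size seen between replicate arrays: the median deviations of the 2 DMSO arrays differed by 0.039 for complex I, 0.11 for complex IV and 0.042 for ATP synthase. The medians also moved with the arrays and the scaling used. Without 1 array they ran from 0.068 to 0.13 for complex I, 0.010 to 0.17 for complex II (lowest without shikonin 2, highest without shikonin 1), 0.080 to 0.13 for complex III, 0.016 to 0.12 for complex IV (lowest without DMSO 1) and 0.046 to 0.088 for ATP synthase. With quantile normalization they were 0.048, 0.075, 0.027, 0.009 and -0.023 in the same order. No test between complexes was made, since members of a complex are not replicates.

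**Figure D3:**
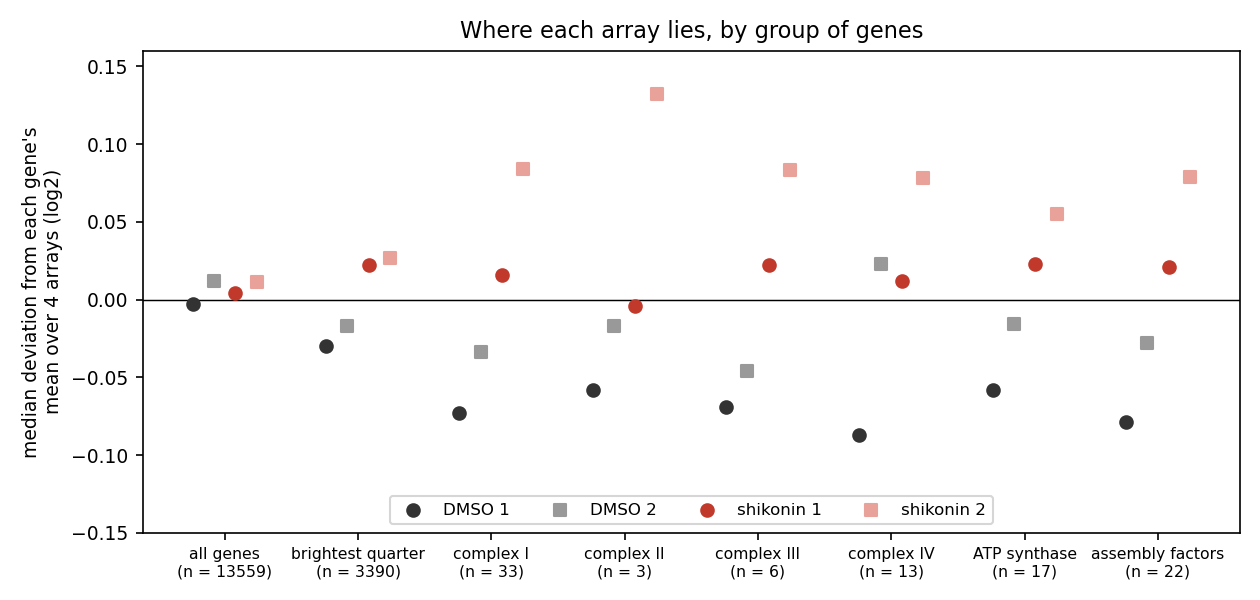
Median deviation (log2) of each array from every gene's own mean over the 4 arrays, for all genes tested, the 3390 brightest and the members by complex or role. In each of the 5 complexes DMSO 1 is lowest and shikonin 2 highest, and the other pair of arrays lies between.

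Across arrays the members shifted together. DMSO 1 was the lowest array for 67 of the 103 members and shikonin 2 the highest for 62. The arrays' median deviations over members were -0.066 and -0.017 in DMSO and 0.013 and 0.074 after shikonin. The difference within DMSO (0.048) and that within shikonin (0.061) were thus not far from the difference between the groups (0.085).

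Brightness moved with this shift. Among the 3390 brightest genes, 89.7% of the 78 members and 62.4% of all 3390 had a log2 change above 0, and the shikonin arrays lay above both DMSO arrays in 62.8% of the members and 43.9% of all 3390. Over all members, 82 of 103 changes were above 0, and 62 with quantile normalization, when the median fell from 0.078 to 0.029 and that of ATP synthase to -0.023. With quantile normalization 5 members were called higher and 2 lower. Cyclic loess normalization, which follows signal and was added after seeing the data, left 71 above 0 and a median of 0.043. The cause of the shift with signal was not tested, and all changes are relative to the rest of each array.

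**Figure D4:**
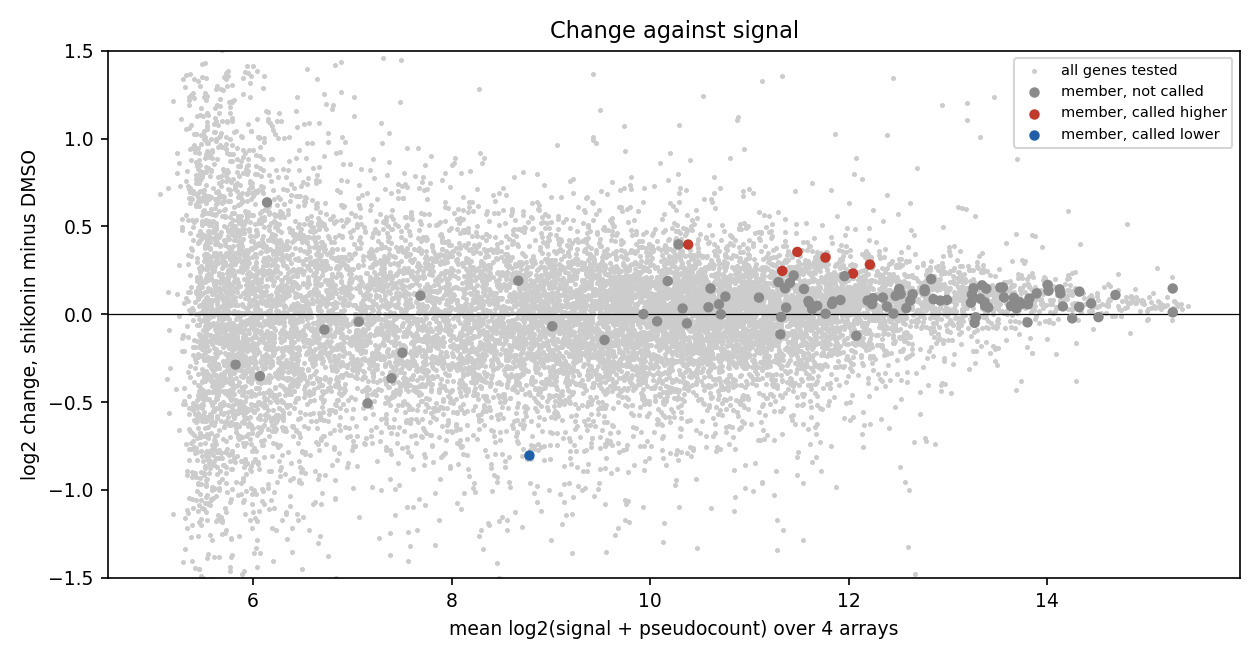
Log2 change against mean log2 signal for all genes tested (light points; 90 genes beyond 1.5 in size are not drawn) and the 103 members (larger points). Members crowd at high signal just above 0; the 6 called higher lie between NDUFB7 (10.38) and NDUFS6 (12.21) on the signal axis, and SDHAF4 lies at 8.78.

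The 4 non-coding RNAs lay below 0 while their neighbours in name did not fall. NDUFB2-AS1 read 171 and 149 in DMSO and 116 and 104 after shikonin (log2 change -0.51, limma adjusted p = 0.208), and NDUFB2 changed by 0.092. COX10-DT, the divergent transcript from the start of COX10, read 179 and 183 in DMSO and 144 and 133 after shikonin (-0.36, limma adjusted p = 0.306), and COX10 changed by 0.001. The values of NDUFV2-AS1 and NDUFV1-DT were -0.29 (SE 0.44) and -0.042 (SE 0.23), and none of the 4 passed. COX10 and NDUFV1 share promoter bases with these transcripts on the opposite strand. Of the 89 members with a window, 29 had another gene's window over at least 50 of the same bases on the other strand. The share over all promoters was not counted.

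Related genes were read from lists of textbook members. Of 39 tested assembly factors outside the symbol rule, 4 were called higher and 0 lower (10.3% and 0%), with a median of 0.059. Over all genes 5.00% were called higher and 6.67% lower, and over the 3390 brightest, which hold 17 of the 39, 10.6% and 9.06%. At an unadjusted p under 0.05 in limma there were 12 of the 39 in either direction. That level was met by 3794 of all 13559 genes and by 1450 of the 3390 brightest. TMEM126A, a complex I assembly factor, read 4609 and 4467 in DMSO and 5655 and 5662 after shikonin (log2 change 0.32, SE 0.056, limma adjusted p = 0.0095), and it stayed called without DMSO 1, DMSO 2, shikonin 1 or shikonin 2. TACO1, which activates translation of COX1, read 630 and 638 in DMSO and 903 and 873 after shikonin, 1.39-fold higher (limma adjusted p = 0.0154). It lost the call without shikonin 1 (0.0697). TMEM70, which helps to build the ATP synthase ring, rose by 0.25 (0.0188), with adjusted p of 0.0646, 0.0916 and 0.0917 when DMSO 1, shikonin 1 and shikonin 2 were left out, and a log2 change of 0.83 without probe sets ending in _x_at or _s_at (0.0519). BCS1L, which inserts the Rieske protein into complex III, rose by 0.34 (0.0289), with 0.094, 0.0543 and 0.157 when DMSO 1, DMSO 2 and shikonin 2 were left out.

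Regulators of mitochondrial transcription moved in both directions. Of 19 tested, 2 (10.5%) were called higher and 3 (15.8%) lower. Over all genes the shares were 5.00% and 6.67%, and over the 3390 brightest, which hold 8 of the 19, 10.6% and 9.06%. TEFM, the elongation factor of the mitochondrial RNA polymerase, read 716 and 700 in DMSO and 1114 and 1058 after shikonin (1.53-fold, log2 change 0.61, SE 0.091, limma adjusted p = 0.0041). TFB2M, which opens mitochondrial promoters, rose by 0.23 (0.03). PPARGC1A encodes PGC-1alpha, a coactivator of mitochondrial biogenesis, and read 801 and 694 in DMSO and 479 and 344 after shikonin. It fell by 0.86 on the log2 scale (SE 0.16, limma adjusted p = 0.0117). TEFM and PPARGC1A stayed called without DMSO 1, DMSO 2, shikonin 1 or shikonin 2. With the mean of all its probe sets, TEFM had a log2 change of 0.41 and lost the call (limma adjusted p = 0.0501).

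PPRC1, a relative of PPARGC1A, fell by 0.29 (limma adjusted p = 0.0283), and so did TFB1M, a methyltransferase of mitochondrial ribosomal RNA that was named after its values were seen (0.0423). TFB2M, PPRC1 and TFB1M lost the call in each of those 4 fits, with adjusted p from 0.0519 to 0.16 for TFB2M, from 0.0735 to 0.129 for PPRC1 and from 0.0671 to 0.168 for TFB1M. TFB1M also turned to 0.13 without probe sets ending in _x_at or _s_at. TFAM, which packs mitochondrial DNA, and NRF1, a factor of many respiratory promoters, changed by 0.24 (0.0618) and 0.25 (0.182) and did not pass.

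**Figure D5:**
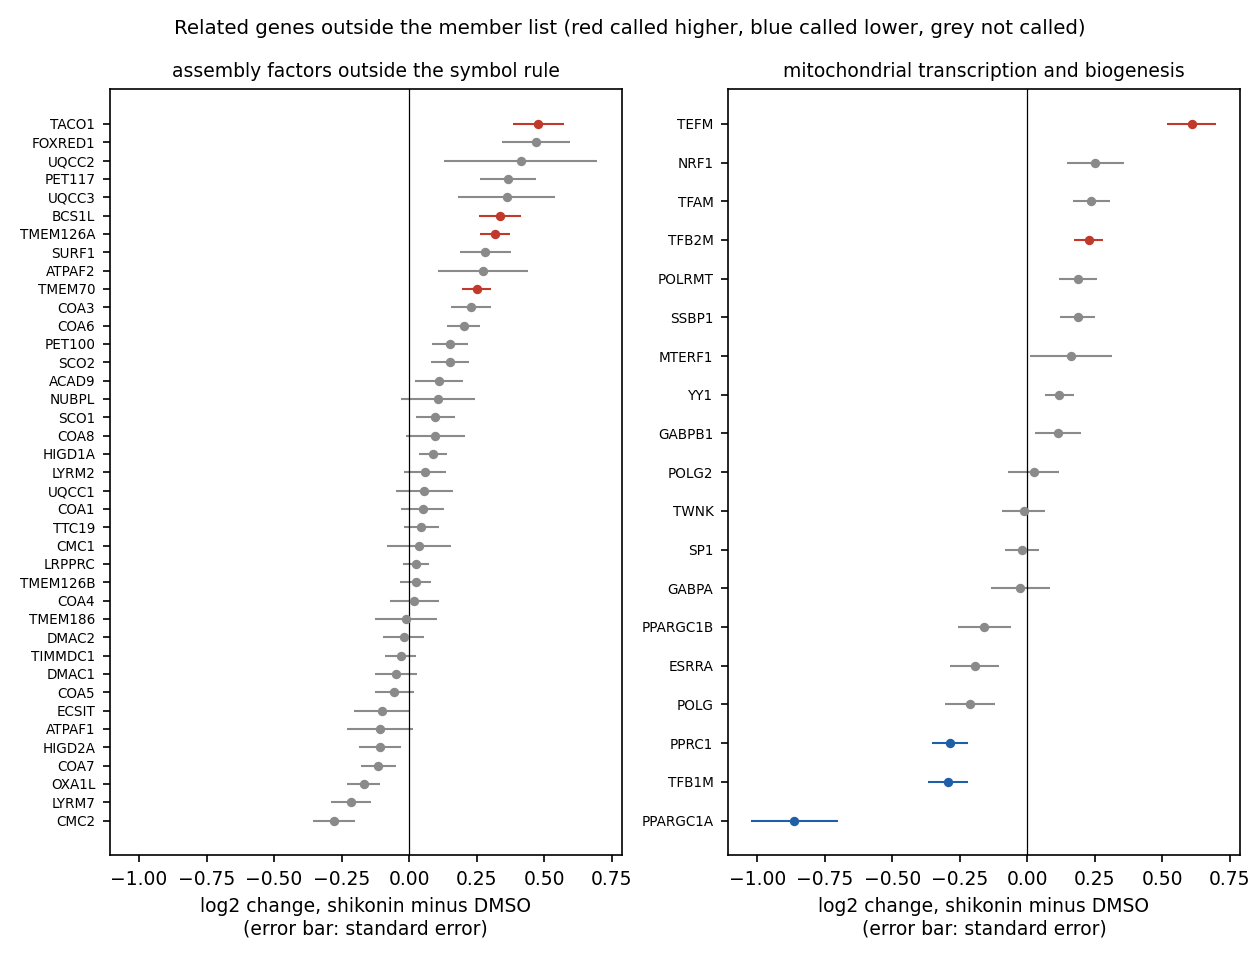
Log2 change with its standard error for assembly factors outside the symbol rule (left, 39 genes) and for genes of mitochondrial transcription and biogenesis (right, 19 genes). Red points were called higher, blue points lower and grey points not called, with TEFM (0.61) and PPARGC1A (-0.86) at the ends of the right panel.

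Neighbouring steps of metabolism gave no calls. As background, 3794 of all 13559 genes and 1450 of the 3390 brightest had an unadjusted p under 0.05 in limma. Of 13 carriers that serve the chain, none passed at the adjusted threshold and 4 had an unadjusted p under 0.05 in limma. The closest were VDAC1, the outer membrane channel (0.19, limma adjusted p = 0.0523), and CYCS, cytochrome c (0.16, 0.0583). Of 17 genes of pyruvate dehydrogenase and the citric acid cycle, none passed and 0 had an unadjusted p under 0.05. Their smallest p belonged to MDH2, malate dehydrogenase (0.11, limma adjusted p = 0.211), and OGDH, oxoglutarate dehydrogenase (-0.24, 0.248). Among 75 mitochondrial ribosome proteins, 12 (16%) were called higher and 0 lower, with a median of 0.12. Over all genes 5.00% were called higher and 6.67% lower, and over the 3390 brightest, which hold 62 of the 75, 10.6% and 9.06%. The difference between the ribosome list and the respiratory genes was not tested.

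Median signals of the arrays ran from 60.5 to 63.7, and the number of arrays, 2 a group, limits precision. Of 8 monocytic marker genes read, 7 lay above the 40th percentile on all 4 arrays, among them LYZ, and FCGR1A did not. Of the markers of other cell types, 2 of 3 for B cells, 1 of 4 for T cells, 1 of 4 for epithelium, 1 of 2 for erythroid cells and 2 of 4 for fibroblasts lay above it on all 4. The summed signal ran from 23451 to 24162 in DMSO and from 23052 to 23466 after shikonin for the monocytic list, which includes the general leukocyte genes PTPRC and ITGB2. Sums of different lists come from different probes and are not compared. In bulk samples, fewer cells of a type and less RNA per cell cannot be told apart.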

How the data were processed

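The values the authors deposited are linear intensity readings per probe set, from biotin-labelled cRNA on human U133 Plus arrays, per the labels' protocols. What summarised the probes is not stated in the labels. The mean without the lowest and highest 2% was 500.1 on all 4 arrays, so changes are relative to the rest of each array. Values were taken as log2(signal + 9.94), the pseudocount being the 20th percentile. Array medians lay within 0.066 (log2), under the limit of 0.1, so no normalization followed. Control probe sets and the dimmest 40% of the others by mean were dropped, leaving 32768. limma 3.58.1 in R 4.3.3 (lmFit, eBayes with a variance trend) was used two-sided, p-values being adjusted (Benjamini-Hochberg) over those 32768 and called at 0.05, and the procedure was tested on simulated data. A gene is its brightest single-gene probe set. All 107 member symbols matched RefSeq. Probe sets with several symbols gave no gene its name, so NDUFS5, NDUFS8, NDUFC2 and UQCRH were not analysed here. Members, lists and motifs were chosen with earlier results of these data known. Named genes were the called members (at most 15 a direction), the extremes of each complex, 18 genes chosen by name, and up to 4 called genes of each related list (2 where none was called); further names were added after their values were seen. Alternatives covered pseudocount, filter, normalization, variance model, probe set choice, replicate block and each array left out.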

Additional observations from a re-analysis of the deposited data

How the results depend on the processing

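Members called higher numbered 6 with all arrays, 2 with no filter on low values, 3 without probe sets ending in _x_at or _s_at, and 0 without a variance trend (limma, smallest adjusted p 0.147; 6 members in either direction had an unadjusted p under 0.05). Leaving out 1 array gave 1 to 3, with the lone array assumed to vary like the other group. The member called lower was SDHAF4; 0 were called lower without a variance trend, 2 with quantile normalization and 2 with gene means. The count was 1 in each fit without 1 array. The median change, 0.078, moved to 0.029 with quantile normalization and to 0.046 to 0.11 without 1 array. NDUFA5 turned to -0.063 with gene means, and TFB1M to 0.13 without _x_at and _s_at probe sets; both settings use other probe sets of the gene. The causes of the other moves were not tested. With the replicate number of the labels as a block, 22 members were called higher and 1 lower, against 6 and 1. Over all probe sets kept, same-numbered arrays deviated from their group means with a correlation of 0.016. Over members, the median deviation of array 2 lay above that of array 1 by 0.048 in DMSO and 0.061 after shikonin. A correlation over all probe sets cannot decide whether the numbers mark a pairing that bears on the members. The main fit used no block. Of all genes tested, 678 were called higher and 905 lower, against 350 and 609 with no filter, 0 and 0 without a variance trend, 1254 and 1345 with the block, and 295 to 473 and 605 to 677 without 1 array. For the single genes put through the alternatives, 542 values kept their side of the threshold, 81 lost the call, 11 gained it and 2 reversed.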
